A study of Mus musculus with 6 samples.

Results

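The neutrophil granule genes described here are S100a8, S100a9, Ngp, Camp, Ltf, Lcn2, Mpo, Elane, Retnlg and Chil3, which the older array annotation calls Chi3l3. They are 10 of the 20659 genes that could be named on a single-colour Agilent expression array, and they were read through 11 probes matched to them by RefSeq transcript. The set was selected on measured values of these same arrays: S100a9 had been among the strongest losses with differentiation. For that reason, the differences of the members between differentiated and undifferentiated cells are given as a description, without a test.

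The arrays held RNA of calvarial osteoblasts from newborn CD1 mice of 2 to 5 days of age, without genetic modification, in 3 groups of 2 arrays each. Undifferentiated osteoblasts were harvested at confluence in growth medium. Differentiated osteoblasts were kept after confluence for 30 days in differentiation medium, and cabozantinib-treated osteoblasts were kept in the same medium for 30 days with 100 nM cabozantinib (XL184), an inhibitor of receptor tyrosine kinases that include MET and VEGFR2. The cultures were primary digests of skull bone and were not sorted, the labels do not give the source of the duplicates, and p-values therefore measure the spread between these arrays, which may be technical.

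Neutrophils carry their antimicrobial proteins in granules that form one after another as the cell matures in bone marrow. Primary granules hold myeloperoxidase (Mpo) and neutrophil elastase (Elane), secondary granules hold lactoferrin (Ltf), the cathelicidin peptide precursor (Camp), neutrophilic granule protein (Ngp) and lipocalin 2 (Lcn2), and the calcium-binding proteins S100A8 and S100A9 fill the cytosol as a heterodimer called calprotectin. Several of these genes are not restricted to neutrophils: S100a8 and S100a9 are also expressed by monocytes, Chil3 by macrophages, and Lcn2 by stromal cells and osteoblasts under inflammatory stimulation.

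All 10 genes matched an entry in the RefSeq promoter table of GRCm38.p6. S100a8 and S100a9 are neighbouring protein-coding genes on chromosome 3, and Chil3 lies elsewhere on chromosome 3 between its relatives Chia1 and Chil4. The windows of 4 members are shown because their signals took 3 different courses over the groups: S100a8 and S100a9 were lower after differentiation, Chil3 was lower after differentiation and lower again with cabozantinib, and Lcn2 was higher after differentiation and lower with cabozantinib. Each window covers 250 bases before the annotated start and 30 bases from it on, 5′ to 3′ on the strand of the gene. Capitals mark matches to the TATA box TATAAA and to TTGCNNAA, a C/EBP-type motif.
S100a8, chr3:90668821-90669100 (plus strand): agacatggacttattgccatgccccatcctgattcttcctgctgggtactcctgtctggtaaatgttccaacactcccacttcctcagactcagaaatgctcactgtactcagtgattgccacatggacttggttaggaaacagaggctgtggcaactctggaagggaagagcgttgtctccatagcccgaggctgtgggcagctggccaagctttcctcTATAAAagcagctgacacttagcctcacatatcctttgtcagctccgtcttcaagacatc
S100a9, chr3:90695692-90695971 (minus strand): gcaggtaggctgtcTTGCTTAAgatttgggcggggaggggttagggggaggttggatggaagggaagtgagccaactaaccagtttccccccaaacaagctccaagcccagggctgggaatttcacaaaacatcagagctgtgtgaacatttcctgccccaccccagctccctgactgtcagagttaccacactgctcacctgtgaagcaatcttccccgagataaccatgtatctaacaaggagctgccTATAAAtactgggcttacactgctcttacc
Lcn2, chr2:32387710-32387989 (minus strand): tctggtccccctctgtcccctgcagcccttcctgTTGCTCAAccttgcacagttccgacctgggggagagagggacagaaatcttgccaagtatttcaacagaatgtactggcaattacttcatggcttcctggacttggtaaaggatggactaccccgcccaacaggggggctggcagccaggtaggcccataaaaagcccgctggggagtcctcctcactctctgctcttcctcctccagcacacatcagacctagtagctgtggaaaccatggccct
Chil3, chr3:106167535-106167814 (minus strand): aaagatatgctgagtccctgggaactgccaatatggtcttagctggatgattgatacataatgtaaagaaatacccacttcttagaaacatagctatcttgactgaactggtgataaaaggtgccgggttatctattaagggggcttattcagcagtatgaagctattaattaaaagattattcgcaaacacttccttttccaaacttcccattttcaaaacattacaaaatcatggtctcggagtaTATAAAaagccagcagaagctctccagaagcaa
The C/EBP-type letters were found on either strand in 5 of the 10 members (S100a9, Ngp, Ltf, Lcn2 and Retnlg) and in 10.36% of all 32851 promoter windows of this length. C/EBP proteins are transcription factors of granulocyte maturation. The TATA box was found in S100a8, S100a9 and Chil3, which is 3 of 10 members, beside 13.1% of all windows. GAGGAA, the core of sites bound by PU.1, was present in 5 members and in 25.98% of all windows, and the AP-1 letters TGANTCA were present in 0 members and in 7.461% of all windows. The motifs searched do not overlap in the members shown. In S100a8 the TATA box began 30 bases before the annotated start, whereas in S100a9 it began at the annotated start base itself (position 0), and in Chil3 it began at position -3. These matches are letters in a window and not measured binding sites, and their part in the signals was not tested.

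Over the 6 arrays, 58.8% to 72.9% of the spots were well above background and no spot was saturated, and the 75th percentile of the signal ranged from 678 to 1975 arbitrary units. Signals are therefore given as log2 values relative to the 75th percentile of the same array, so that 0 is the level of a probe at this percentile. Levels of different probes cannot be set against each other. The 4 arrays without cabozantinib shared one scan and the 2 arrays with cabozantinib shared another, so scan and cabozantinib cannot be told apart, whereas differentiated and undifferentiated cells were compared within one scan. In RNA from a mixed culture, fewer cells of a type and less RNA per cell cannot be told apart.

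Of the 10 genes, 6 gave a signal well above background on each of the 6 arrays: S100a8, Camp, Lcn2, Mpo, Elane and Chil3. Of the other members, 2 (S100a9 and Ltf) were well above background only on the undifferentiated arrays, and 2 (Ngp and Retnlg) were on no array and were not tested. The 8 genes tested include S100a9 and Ltf, which passed the filter on dim probes only through the undifferentiated group.

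**Figure D1:**
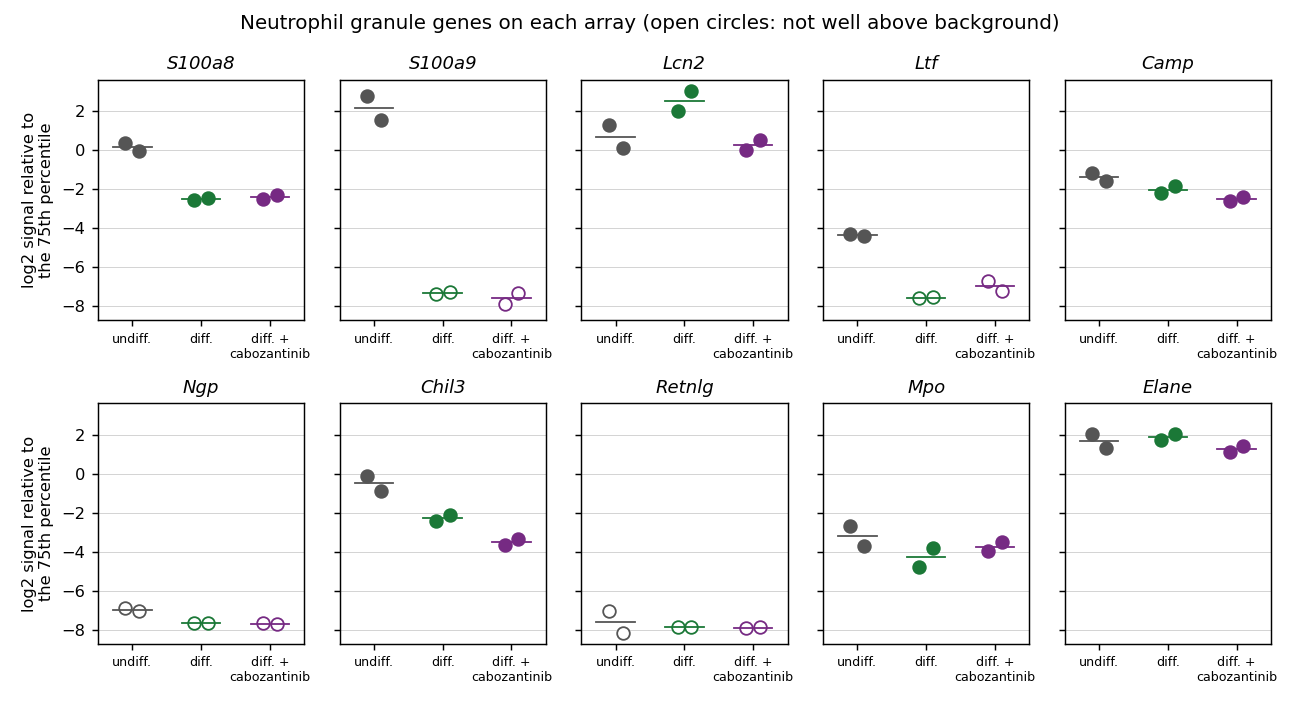
Log2 signal of each member relative to the 75th percentile of its array (vertical axis) in undifferentiated, differentiated and cabozantinib-treated osteoblasts; each circle is 1 array, filled where the probe was well above background and open where it was not, and each line is the mean of 2 arrays. S100a9 goes from 2.78 and 1.54 to the background, Lcn2 peaks in the differentiated group, and Elane stays between 1.10 and 2.05.

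The calprotectin genes S100a8 and S100a9 were both lower after differentiation. S100a9 stood at 2.78 and 1.54 in undifferentiated osteoblasts, or 4663 and 5764 arbitrary units. In differentiated cells its signal was 7.31 and 4.67 units, and in cabozantinib-treated cells it was 5.96 and 6.80 units. All 4 of these were not well above background, so the level after differentiation has only an upper bound. Against the dimmest signal that counted as well above background on each array, S100a9 was at least 299-fold lower in differentiated than in undifferentiated cells, and at least 223-fold lower in cabozantinib-treated cells, which share the same undifferentiated arrays. Bounds of this kind divide the bright group's mean by a mean over the arrays of the dim group. On each of those arrays the value taken was the lowest signal well above background, or the probe's own signal if higher. The bounds hold for the main processing only. Over the alternatives, the log2 difference of S100a9 from undifferentiated cells ranged from -10.27 to -5.89 without cabozantinib and from -10.55 to -6.25 with it.

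S100a8 differed less and stayed measurable. Its log2 signal was 0.35 and -0.05 in undifferentiated cells, -2.57 and -2.46 in differentiated cells, and -2.52 and -2.28 in cabozantinib-treated cells. The undifferentiated arrays lay above all 4 others, and the differentiated and cabozantinib-treated arrays overlapped. The mean was 6.37-fold lower in differentiated than in undifferentiated cells, a log2 difference of -2.67. S100A8 protein is found mainly bound to S100A9, and in these RNA measurements a signal for S100a8 remained in cultures where that for S100a9 was not above background. No probe read here, including those for S100a8 and Elane, was checked for matches to other transcripts.

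Among the secondary granule genes, no shared course was seen. Ltf, which encodes the iron-binding protein lactoferrin, was at -4.28 and -4.42 in undifferentiated cells, and its 4 other arrays, at -7.59, -7.53, -6.71 and -7.20, were not well above background. It was at least 3.28-fold lower in differentiated cells and at least 2.44-fold lower in cabozantinib-treated cells than in undifferentiated cells. Over the alternatives, its log2 differences ranged from -3.40 to -0.88 and from -2.83 to -0.89, so these bounds depend on the processing. No fold between cabozantinib-treated and differentiated cells can be given for Ltf or for S100a9, since neither group measured them.

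Camp was read by 2 probes. At the brighter one it was -1.16 and -1.56 in undifferentiated, -2.18 and -1.86 in differentiated, and -2.60 and -2.39 in cabozantinib-treated cells. The 3 groups did not overlap, but the steps were small: the log2 difference of differentiated from undifferentiated cells was -0.66 at this probe and -0.74 at the other. Ngp, a member of the cystatin and cathelicidin superfamily, was between -7.68 and -6.90 and was not above background on any array.

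Lcn2, which encodes a carrier of bacterial siderophores that is secreted by many cell types, took the opposite course to S100a9 with differentiation. Its log2 signal was 1.28 and 0.09 in undifferentiated cells, 2.00 and 3.05 in differentiated cells, and 0.02 and 0.53 in cabozantinib-treated cells. Both differentiated arrays lay above the 4 others, and the undifferentiated and cabozantinib-treated arrays overlapped. The mean was 3.57-fold higher in differentiated than in undifferentiated cells, a log2 difference of 1.84.

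Chil3, which encodes the chitinase-like protein Ym1 of neutrophils and of alternatively activated macrophages, was lower in each successive group. Its values were -0.09 and -0.87 in undifferentiated, -2.44 and -2.13 in differentiated, and -3.65 and -3.32 in cabozantinib-treated cells, with no overlap between groups. The mean was 3.49-fold lower in differentiated than in undifferentiated cells, and 8.06-fold lower in cabozantinib-treated than in undifferentiated cells. Retnlg, a resistin-like gene of granulocytes, was between -8.15 and -7.05 and was above background on no array.

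The primary granule genes Mpo and Elane showed no common course. Mpo was -2.67 and -3.70 in undifferentiated, -4.76 and -3.79 in differentiated, and -3.97 and -3.49 in cabozantinib-treated cells. The differentiated arrays lay below the undifferentiated ones by a narrow gap, the cabozantinib-treated arrays overlapped with both groups, and the mean log2 difference of differentiated from undifferentiated cells was -1.09. Elane was 2.02 and 1.32 in undifferentiated, 1.71 and 2.05 in differentiated, and 1.10 and 1.42 in cabozantinib-treated cells. The undifferentiated and differentiated arrays of Elane overlapped, with a log2 difference of 0.21 that turned to -0.31 without the second undifferentiated array and to -0.05 without the second differentiated array.

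By limma, 2164 of 23058 genes tested (9.39%) differed between differentiated and undifferentiated cells at an adjusted p under 0.05. In cabozantinib-treated against undifferentiated cells, which share the undifferentiated arrays, 3028 genes (13.1%) passed. The members are not counted in either contrast, since they were selected on the first. The median over all genes was 0.10 for the first contrast and -0.38 for the second.

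The comparison of cabozantinib-treated with differentiated osteoblasts was not used to choose the members, although it shares the differentiated arrays with the contrast that was. It asks whether the kinase inhibitor changed these genes in cells kept in the same medium for the same time. At an adjusted p under 0.05 by limma, 0 of the 6 members measured on all 4 of these arrays passed, beside 1 of 23058 genes (0.00434%), which was Iapp and was named after its value was seen. S100a9 and Ltf were also in the fit, but were not well above background on any of the 4 arrays and are left out of this count. At an unadjusted p under 0.05 by limma, 2 of these 6 members passed (Lcn2 and Chil3), beside 5372 of 23058 genes. The same 2 members were over 2-fold lower, as were 25.7% of all genes tested. The count over all genes lay at an edge, as 473 more genes had an adjusted p from 0.05 to 0.052. The median log2 difference of the 6 members was -0.55 and that of all genes was -0.30.

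Lcn2 had the largest difference of the members. It was 4.76-fold lower with cabozantinib than without, a log2 difference of -2.25 ± 0.61 (SE, 95% interval -3.63 to -0.87) or -1.95 relative to the median gene, and the adjusted p by limma was 0.0728 (unadjusted 0.00477). Both cabozantinib arrays lay below both differentiated arrays. The adjusted p over the alternatives ranged from 0.00326 to 0.99975. It passed at 0.0430 in the fit without the replicate block, where 2865 of 23058 genes passed. It also passed at 0.0251 when only the 4 arrays compared were fitted, where 5805 genes passed. With the undifferentiated replicate numbers exchanged it passed at 0.00326, and 7012 genes passed. The difference stayed between -2.94 and -1.56 over all the alternatives.

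Chil3 was 2.31-fold lower with cabozantinib, a log2 difference of -1.21 ± 0.52 (SE, 95% interval -2.38 to -0.03) or -0.91 relative to the median gene. Its adjusted p by limma was 0.204. This became 0.0316 when only the 4 arrays compared were fitted, where 5805 of 23058 genes passed. Its difference stayed between -1.49 and -0.53. The other members measured in both groups had intervals that include 0. S100a8 differed by 0.12 (95% interval -0.99 to 1.22, adjusted p by limma 0.954) and Mpo by 0.55 (-0.77 to 1.87, adjusted p 0.705). Camp differed by -0.47 (-1.59 to 0.64, adjusted p 0.697) and Elane by -0.63 (-1.79 to 0.54, adjusted p 0.578), and both turned positive, to 0.20 and 0.05, when arrays were scaled to their median instead of their 75th percentile, which moved the median of all genes from -0.30 to 0.38. These intervals leave room for a change of over 2-fold in each of these 4 genes.

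**Figure D2:**
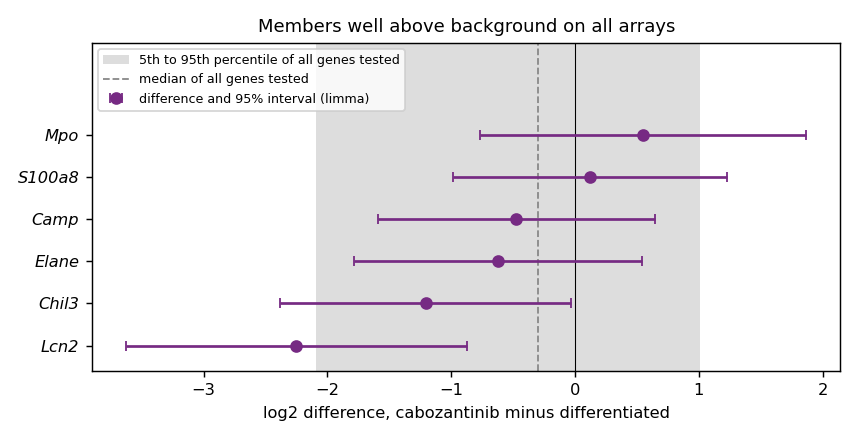
Log2 difference of cabozantinib-treated from differentiated osteoblasts (horizontal axis) for the 6 members well above background on all arrays; points are limma estimates from 2 arrays a group, bars are 95% intervals, the grey band spans the 5th to 95th percentile of all genes tested (-2.09 to 1.01) and the dashed line is their median. Lcn2 at -2.25 lies just outside the band and the other 5 lie inside it.

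The 4 granule genes of the primary list that are no members and were tested (Prtn3, Ctsg, Bpi and Ctsc) held 0 calls in either direction between differentiated and undifferentiated cells, with a median log2 difference of 0.01. Of the 9 secondary and tertiary granule genes tested beside the members, 3 rose and 1 fell at an adjusted p under 0.05 by limma, with a median of 1.47. The gene that fell was Mmp8, neutrophil collagenase, with a log2 difference of -2.95 ± 0.48 (SE, adjusted p 0.00532). Those that rose were Cybb, a subunit of the phagocyte NADPH oxidase (3.15 ± 0.55, adjusted p 0.00674), the metalloprotease Adam8 (2.13 ± 0.53, adjusted p 0.0337) and the metal transporter Slc11a1 (1.96 ± 0.53, adjusted p 0.0470). All 3 are also expressed by macrophages.

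Of 11 neutrophil markers outside granules that were tested, 2 rose and 2 fell. The stefin genes Stfa1 and Stfa2l1, inhibitors of cysteine proteases, were well above background only in undifferentiated cells. They were at least 160-fold and at least 18.2-fold lower in differentiated cells. Both passed the filter on dim probes only through the undifferentiated group, so their falls are a description and no p-value is given. The formyl peptide receptor Fpr1 rose by 1.82 ± 0.48 (SE, adjusted p by limma 0.0450). Cxcr4, the receptor that holds neutrophils and progenitors in marrow, rose by 4.06 ± 0.48 (SE, adjusted p by limma 0.00135). The chemokine receptor Cxcr2, a defining gene of mature neutrophils, was above background on no array, and Ly6g had no probe matched. Csf3r, the receptor for G-CSF, was measured on each of the 6 arrays, at 1.28 and 1.10 in undifferentiated, 0.49 and 0.84 in differentiated, and 0.59 and 0.45 in cabozantinib-treated cells.

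The label was checked against cell type markers. The summed signal of 11 neutrophil markers, relative to the 75th percentile on a linear scale, was 7.99 and 5.85 in undifferentiated, 4.17 and 4.20 in differentiated, and 3.50 and 3.37 in cabozantinib-treated cells, with 9 or 10 of them well above background on an undifferentiated array, 6 on a differentiated array and 5 on a cabozantinib array. Nearly all of the difference in this sum between undifferentiated and differentiated cells lay in Stfa1: without it, a sum taken after seeing the data, the other 10 markers summed to 4.18 and 4.34 in undifferentiated, 4.16 and 4.19 in differentiated, and 3.50 and 3.37 in cabozantinib-treated cells. Of 9 neutrophil markers tested between differentiated and undifferentiated cells, 1 rose (Fpr1), 2 fell (Stfa1 and Stfa2l1) and 6 did not pass. The near-equal sums of the other 10 markers thus held changes in opposite directions and do not mean that each marker stayed level. Fpr1 rose by 1.82 on the log2 scale, Stfa2l1 fell, and Csf3r differed by -0.52 and did not pass. Stfa1 and Stfa2l1 had passed the filter on dim probes only through the undifferentiated group. The summed macrophage markers went from 47.3 and 28.4 in undifferentiated cells to 387 and 492 in differentiated and 353 and 409 in cabozantinib-treated cells. The sum of 12 pan-leukocyte markers went from 76.9 and 48.8 to 199 and 207 and to 182 and 208. Of 12 macrophage genes tested, 9 rose with differentiation and 0 fell, and of 12 pan-leukocyte genes 7 rose and 0 fell, with medians of 3.50 and 2.20. Among the defining genes, Csf1r rose by 2.83 ± 0.63 (SE, adjusted p by limma 0.0211), Adgre1 by 4.02 ± 0.49 (adjusted p 0.00157) and Mrc1 by 5.30 ± 0.53 (adjusted p 6.37e-04). Cd163 and C1qa were above background on no array. Of the other C1q genes, C1qc rose by 7.17 ± 0.56 (SE, adjusted p by limma 3.38e-04), and C1qb differed by 1.37 and did not pass. The summed macrophage and pan-leukocyte signals were lowest in the undifferentiated group. Among the members tested, the means of S100a8, S100a9, Ltf, Camp, Mpo and Chil3 were highest in that group. Those of Lcn2 and Elane were highest in the differentiated group. The part of these other cells in the values of the members was not tested.

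**Figure D3:**
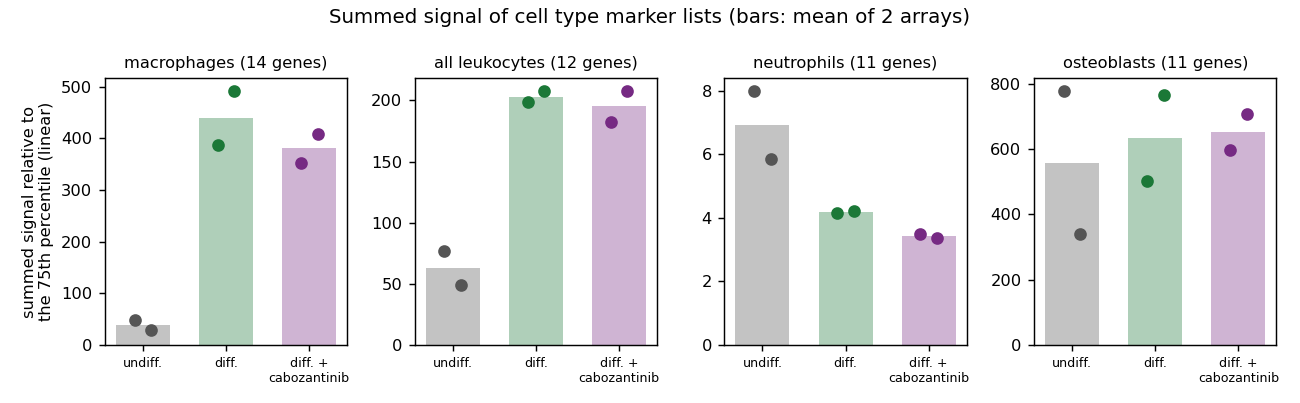
Summed signal of macrophage, pan-leukocyte, neutrophil and osteoblast marker lists, relative to the 75th percentile of each array on a linear scale that starts at 0 and differs between panels; points are arrays and bars are means of 2 arrays. Macrophage markers rise from 47.3 and 28.4 to 387 and 492 with differentiation, and neutrophil markers go from 7.99 and 5.85 to 4.17 and 4.20. Without Stfa1 the neutrophil sum goes from 4.18 and 4.34 to 4.16 and 4.19, with single markers changing in opposite directions.

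The other marker lists held fewer calls than the macrophage and pan-leukocyte lists, though not all held fewer than the neutrophil list. Over all genes tested, 9.39% were called between differentiated and undifferentiated cells. Osteoblast markers summed to 778 and 338, 502 and 765, and 597 and 709 in the 3 groups, and of 11 tested, 4 rose with differentiation (Bglap2, Ibsp, Dmp1 and Phex) and 1 fell (Spp1). Calls between differentiated and undifferentiated cells numbered 1 of 5 erythroid genes tested (Epor, higher), 0 of 4 lymphocyte genes, 2 of 5 mast cell and eosinophil genes (Ccr3 and Siglecf, both higher), and 1 of 3 endothelial genes (Cdh5, higher). In cabozantinib-treated against differentiated cells, 0 genes were called in every one of the granule, pathway and marker lists described here.

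S100a8 and S100a9 were set beside 14 other S100 genes, of which 11 were tested. Between differentiated and undifferentiated cells, 1 of them rose (S100a1, 1.97 ± 0.51 SE, adjusted p by limma 0.0410) and 1 fell (S100g, -3.05 ± 0.68, adjusted p 0.0208), and the median was -0.12. The genes S100a4, S100a6, S100a10 and S100a11, which are expressed by many mesenchymal cells, had log2 differences of -0.35, -0.87, 0.11 and -1.02 and did not pass. S100a7a, the coding neighbour of S100a8 on the other side from S100a9, was above background on no array. With cabozantinib against without, the 11 genes had a median of -0.34 and a range of -1.58 to 0.42, the lowest being S100g, which was not well above background on the cabozantinib arrays.

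**Figure D4:**
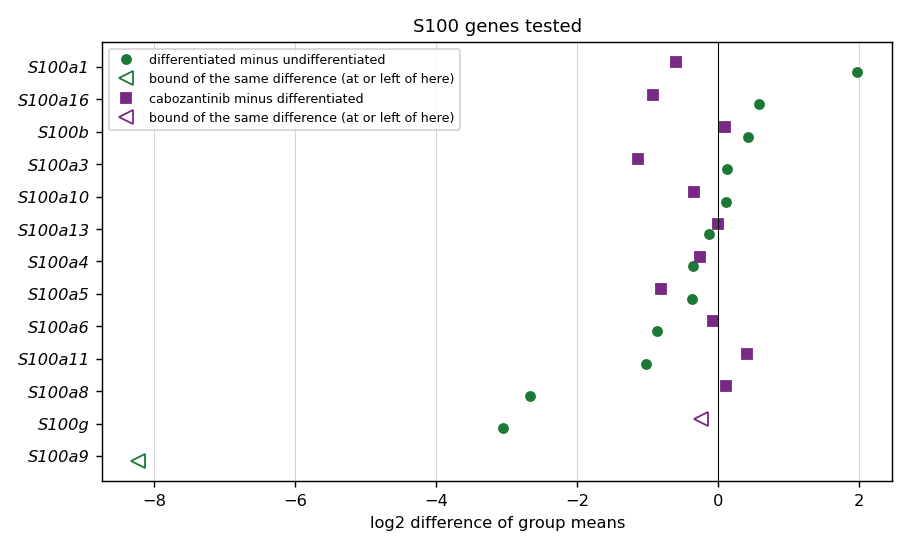
Log2 differences of the S100 genes tested between differentiated and undifferentiated osteoblasts (circles) and between cabozantinib-treated and differentiated osteoblasts (squares), with triangles for bounds where only one group was well above background. S100a9 has no square because neither group measured it, and its bound lies to the left of the other genes' values.

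The genes that act around the members were counted as lists. Of 7 granulocyte transcription factors tested, 1 rose (Irf8, a factor of monocyte and macrophage fate, 3.07 ± 0.49 SE, adjusted p by limma 0.00490) and 0 fell. The C/EBP genes Cebpa, Cebpb, Cebpd and Cebpe had differences of -0.94, 0.23, -0.52 and -1.31 and did not pass, while Gfi1 was above background on no array and Spi1, which encodes PU.1, on 1. Of 6 granulopoietic and neutrophil-recruiting factors tested, Cxcl12, the ligand of CXCR4, rose by 3.06 ± 0.50 (adjusted p 0.00501) and the cytokine Il6 fell by 3.71 on the log2 scale (SE 0.60, adjusted p 0.00499). Csf3, which encodes G-CSF, and Csf2 were above background on no array.

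Among 7 receptors tested for calprotectin and lipocalin 2, 2 rose and 1 fell with differentiation. The scavenger receptor Cd36 rose by 5.73 ± 0.51 (SE, adjusted p by limma 4.44e-04) and Emb, an S100A9 receptor, by 2.44 ± 0.48 (adjusted p 0.0122). The gene that fell was Bsg (basigin), whose probe was at least 10.6-fold lower. It was well above background on neither differentiated array and would not have passed the filter on dim probes without the undifferentiated group. Its fall is therefore a description and no p-value is given. Tlr4 differed by 1.69 and did not pass. The lipocalin 2 receptor gene Slc22a17 differed by 1.44 and did not pass, and Lrp2 and Mc4r differed by 0.24 and 0.22.

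Acute phase and NF-κB target genes went both ways. Of 9 tested, Saa3 (-4.21 ± 0.65 SE, adjusted p by limma 0.00413), Ccl7 (-2.42 ± 0.65, adjusted p 0.0465) and Il6 fell, and the complement gene C3 rose (3.70 ± 0.54, adjusted p 0.00322). Saa3, an acute phase protein gene, was 1.03 and 0.31 in undifferentiated, -4.49 and -2.58 in differentiated, and -3.92 and -3.83 in cabozantinib-treated cells. C3 was -0.31 and -0.99, then 2.67 and 3.44, then 1.48 and 1.70, so that, like Lcn2, it had its highest pair of values in differentiated cells. Of 13 tested relatives of the members by protein family, 4 rose (Ptgds, Apod, Chil1 and Meltf, by 5.55, 3.21, 4.34 and 3.39) and 1 fell (Stfa3, -5.08). Lipocalin, chitinase-like and transferrin relatives of Lcn2, Chil3 and Ltf were thus among those that rose, and the direction of Chil1 and Meltf was opposite to that of Chil3 and Ltf.

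The 5 genes whose log2 signals over the 6 arrays were most like those of S100a9 were Gdnf, Eomes, Mcpt8, Stfa3 and Uhmk1, with Pearson correlations of 0.9996, 0.9990, 0.9988, 0.9986 and 0.9981. These arrays form high and low sets, so that any gene high on the undifferentiated pair correlates, and 33 of 23058 genes exceeded 0.99. Gdnf, a neurotrophic factor gene, was 1.14 and 0.88 in undifferentiated, -1.46 and -1.45 in differentiated, and -1.54 and -1.50 in cabozantinib-treated cells. Mcpt8, a protease gene of basophils, was -2.81 and -3.33 in undifferentiated cells and not well above background on the 4 other arrays.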

How the data were processed

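Cy3-labelled RNA of 6 samples was hybridised to single-colour Agilent mouse arrays, and the scanner output was deposited as spot intensity values from Feature Extraction 11.0.1.1; the authors also deposited a table of normalized log2 values, used only as an alternative. The array headers name an older genome build, and promoter windows come from RefSeq GRCm38.p6. Here log2 of the processed signal intensity was taken, control and outlier spots were left out, spots of a probe were averaged, and each array's 75th percentile was subtracted. Of 39429 probes, 69.1% were named through RefSeq transcripts. Probes that passed the scanner's background test on 2 or more of 6 arrays and had a value on all (27196 probes, 23058 genes including unnamed transcripts) were fitted with limma 3.58.1 (R 4.3.3), with the replicate number as a block, after the paired test in the study's statistics, and Benjamini-Hochberg adjustment over all probes. A gene was read at its brightest probe. The number of arrays limits the precision. The members and gene lists were chosen with earlier results of these data known. Genes named were members, list genes with an adjusted p under 0.05, defining markers, or the 5 most like S100a9. Not every list gene with an adjusted p under 0.05 was named. List genes named beyond these kinds were chosen after their values were seen. Same-numbered arrays did not deviate together in every pair of groups (correlations -0.51, -0.53 and 0.26). Alternatives covered scaling, background correction, filter, block, arrays fitted, probe rule and leaving out each array.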

Additional observations from a re-analysis of the deposited data

How the results depend on the processing

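With the numbers 1 and 2 as the pairing, the replicate block decided the counts for cabozantinib: without the replicate block 2865 genes and 1 member (Lcn2) passed between cabozantinib-treated and differentiated cells, 5561 genes passed between cabozantinib-treated and undifferentiated cells, and 3010 between differentiated and undifferentiated cells. With the undifferentiated numbers exchanged, a pairing added after seeing the data, the counts were 7012 genes and 2 members, 10224 and 5888. Between cabozantinib-treated and differentiated cells, the 1 gene called became 5805 genes and 2 members with only the arrays compared, 988 when probes of a gene were averaged, 136 with variance trend and robust settings, 2 with probes well above background on all arrays, and 0 with median scaling, quantile normalization, no filter on dim probes or the authors' values. The methods' t-test gave 0 genes after adjustment in each of the 3 comparisons and 3714, 1789 and 1292 genes at an unadjusted p under 0.05, with 2 members (Chil3 and Elane) in the first. Leaving out 1 array gave 41 to 5805 genes and 0 to 2 members for cabozantinib-treated against differentiated, the highest without either undifferentiated array, 667 to 8952 genes for cabozantinib-treated against undifferentiated, and 1399 to 4632 for differentiated against undifferentiated. Cabozantinib-treated against undifferentiated gave 1123 genes with no filter, 582 with normexp on the median signal (added after seeing the data, since the planned normexp on the mean signal was not run), 1311 with quantile normalization, 1025 with the authors' values and 1318 with probes well above background on all arrays. The share called higher moved from 34.1% to 72.2% with quantile normalization, 79.9% with median scaling and 76.5% with the authors' values. Differentiated against undifferentiated gave 1363 genes with no filter and 858 with normexp.

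Differences of members that changed sign were under 2-fold in the main processing, but some exceeded 2-fold in an alternative. Between cabozantinib-treated and differentiated cells, median scaling turned Camp to 0.20 and Elane to 0.050, normexp gave -0.016 for S100a8, and leaving out 1 array gave -0.071 to 1.17 for Mpo (lowest without the first differentiated array) and -0.077 to 0.31 for S100a8 (lowest without the second cabozantinib array). Between cabozantinib-treated and undifferentiated cells, median scaling gave 0.32 for Elane, 0.32 for Lcn2 and 0.19 for Mpo, quantile normalization and the authors' values gave 0.066 and 0.067 for Mpo, and leaving out 1 array gave -0.93 to 0.10 for Elane, -1.40 to 0.57 for Lcn2 and -1.42 to 0.33 for Mpo, each lowest without the second and highest without the first undifferentiated array. Between differentiated and undifferentiated cells, Elane ranged from -0.31 without the second undifferentiated array to 0.73 without the first, and was -0.05 without the second differentiated array. The differences of S100a8, S100a9, Ltf, Camp, Mpo and Chil3 between differentiated and undifferentiated cells kept their sign in every alternative in which they were tested, as did the rise of Lcn2. The cause of these changes was not tested.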
